A study of Caenorhabditis elegans with 2 samples.

Results

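Mitochondrial ribosomal protein genes were examined as possible targets of NHR-28, a nuclear hormone receptor, in Caenorhabditis elegans. The genes were taken by name, as all protein-coding genes of the Ensembl WBcel235 annotation whose symbol is mrps- or mrpl- and a number. This gave 70 of 19973 nuclear protein-coding genes, 41 named for the large subunit (mrpl) and 29 for the small one (mrps). For mrps-18C, RefSeq gives the product as the large subunit protein uL3m, and the gene was counted here by its symbol.

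The mitochondrial ribosome translates the few proteins that mitochondrial DNA encodes, which are core subunits of the respiratory chain. Its RNAs come from mitochondrial DNA, whereas its proteins are encoded in the nucleus, made in the cytosol and imported. In C. elegans, loss of mitochondrial ribosomal proteins such as MRPS-5 is known to trigger the mitochondrial unfolded protein response and to extend lifespan. Many worm genes lie in operons, where a single promoter serves several genes in a row. Many worm messages are trans-spliced, so that an annotated transcription start site (TSS) can be a splice site downstream of the true start.

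The data were chromatin immunoprecipitation sequencing (ChIP-seq) of an eGFP-nhr-28 fusion in whole L4 larvae, with males and females pooled. Both samples came from strain OP317, which carries the unc-119(ed3) III mutation and the insertion wgIs317, from which the tagged receptor is made. Whether untagged NHR-28 was also present is not stated. There was 1 group with 2 biological replicates and no other genotype or treatment, and in whole animals the tissue of a region is not known. The optimal set, which the authors derived from both replicates and their pooled alignments, held 8745 regions with signal values from 36.2 upward on a scale not given in the sources used here, and read depth is unknown. No region of the pooled list had its summit, the base of highest enrichment, in the promoter of nhr-28 or of unc-119, where promoter means 1000 bp upstream to 200 bp downstream of a TSS.

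Of the 70 genes, 21 (30.0%) had an optimal summit in their promoter, against 24.8% of all protein-coding genes. The share was thus close to that of genes in general. The 21 genes shared 20 summits, since mrpl-1 and mrps-24 had the same one. By subunit, 14 of 41 large subunit genes (34.1%) and 7 of 29 small subunit genes (24.1%) had a summit. Each of the 21 had a single one, whereas 10.5% of all genes with a summit had more. None of the genes lies on the X chromosome.

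Signal at these promoters was also ordinary. The median of the 21 was 75.6, and the values ran from 37.2 to 159. Over all 4946 genes with a promoter summit the median was 78.8 and the highest value 993. The upper quartiles were 108 and 123. Of the 21 genes, 10 lay above the median of all genes, and the best of them ranked 1134 among the 8745 regions.

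**Figure D1:**
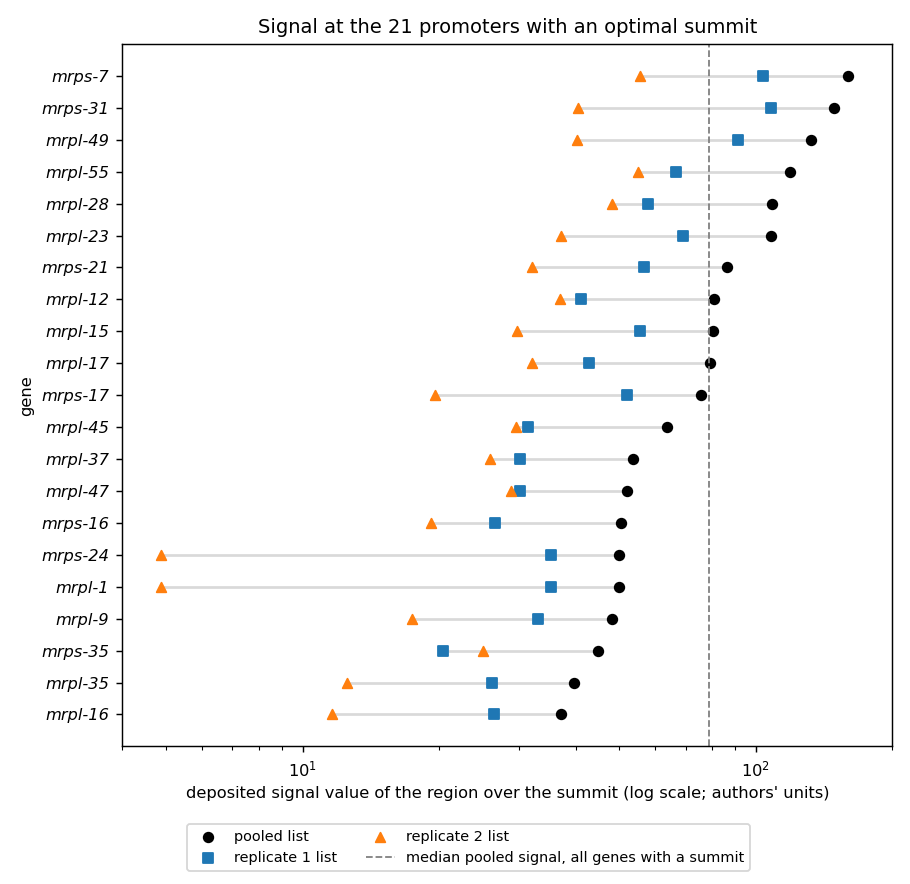
Deposited signal value (log axis, authors' units) of the region over each summit, for the 21 genes with an optimal promoter summit. Circles are the pooled list, squares replicate 1 and triangles replicate 2, joined by a grey line; the dashed line is the median of all genes with a summit, 78.8. The values fall from 159 at mrps-7 to 37.2 at mrpl-16, and replicate 2 stands far below replicate 1 at the summit of mrpl-1 and mrps-24.

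The highest summits were at genes of both subunits. For mrps-7, whose bacterial counterpart S7 starts assembly of the small subunit head, the signal was 159 in the pooled list, 104 in replicate 1 and 55.6 in replicate 2. Next came mrps-31, which encodes a small subunit protein that bacterial ribosomes lack, with 149 pooled, 108 in replicate 1 and 40.6 in replicate 2. The mrps-7 region ranked 1013 of 30000 in replicate 1 and 1518 in replicate 2, and the mrps-31 region 933 and 2680. Of the large subunit genes, mrpl-49 had 132 pooled, 91.5 in replicate 1 and 40.3 in replicate 2. The values at mrpl-55 were 118.6, 66.7 and 55.1 in the same order. Like mrps-31, mrpl-49 encodes a protein without a bacterial counterpart. At mrpl-28, which encodes bL28m, the signal was 109 pooled, 57.8 in replicate 1 and 48.1 in replicate 2.

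The sequences at these summits are shown with 4 of lower signal that share a string with them. The mrpl-47 summit, which lay in a 5′ UTR, also holds GCGCTCC and is not shown. Each runs from 50 bp before to 50 bp after the summit, 5′ to 3′ on the strand of the named gene, from the RefSeq WBcel235 genome (ce11 coordinates). Capitals mark CGCAAAC and GCGCTCC or their reverse complements, GTTTGCG and GGAGCGC. The windows are chrIV:14767858-14767958 (minus strand) for mrps-7, chrIII:3630510-3630610 (minus) for mrps-31, chrV:12728418-12728518 (plus) for mrpl-49, chrIV:443798-443898 (plus) for mrpl-55 and chrII:156055-156155 (minus) for mrpl-28. Those of lower signal are chrIII:10707168-10707268 (plus) for mrpl-12, chrIII:1202303-1202403 (minus) for mrpl-45, chrII:5474093-5474193 (plus) for mrps-16 and chrIV:7709837-7709937 (minus) for mrpl-1. The 9 summits shown lay between genes.
mrps-7: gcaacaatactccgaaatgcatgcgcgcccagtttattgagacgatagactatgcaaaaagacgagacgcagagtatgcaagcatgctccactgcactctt
mrps-31: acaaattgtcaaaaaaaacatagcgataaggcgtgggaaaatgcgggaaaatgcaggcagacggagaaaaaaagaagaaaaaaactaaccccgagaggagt
mrpl-49: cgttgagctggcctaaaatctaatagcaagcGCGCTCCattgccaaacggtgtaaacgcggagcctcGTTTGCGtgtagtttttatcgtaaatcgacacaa
mrpl-55: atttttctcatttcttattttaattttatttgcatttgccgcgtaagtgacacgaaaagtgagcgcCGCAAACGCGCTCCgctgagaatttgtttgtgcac
mrpl-28: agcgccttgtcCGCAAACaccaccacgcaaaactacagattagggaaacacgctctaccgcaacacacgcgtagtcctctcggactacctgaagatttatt
mrpl-12: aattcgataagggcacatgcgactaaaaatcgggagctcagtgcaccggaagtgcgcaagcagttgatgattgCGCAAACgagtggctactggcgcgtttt
mrpl-45: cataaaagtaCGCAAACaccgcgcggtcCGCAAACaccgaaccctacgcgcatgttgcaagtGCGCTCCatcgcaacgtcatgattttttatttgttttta
mrps-16: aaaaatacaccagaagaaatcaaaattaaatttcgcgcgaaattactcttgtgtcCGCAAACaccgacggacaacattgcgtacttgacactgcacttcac
mrpl-1: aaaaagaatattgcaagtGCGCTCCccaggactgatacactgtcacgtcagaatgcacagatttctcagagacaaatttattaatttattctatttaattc

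None of the 20 summits had TGATAA within 50 bp. TGATAA, or TTATCA on the other strand, is one form of the site bound by GATA factors, which direct intestinal gene expression in worms. Other forms of the site were not searched. TGATAA was found at 1498 of all 4645 promoter summits (32.2%). A count of 0 of 20 allows a share of up to 15.0%, with counting error only. Within 25 bp the counts were 0 of 20 against 18.8% of all promoter summits. Within 100 bp, 4 of 20 (20.0%) had it, against 44.3%. Among the regions of highest signal in replicate 1 alone, 2 of 18 summits had it (33.2% of all), and in replicate 2 alone 0 of 19 (29.2%).

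Base composition and gene spacing moved with this count. The 20 windows had a median GC content of 47.03%, against 40.6% at all promoter summits. Of the other promoter summits, 5.37% held TGATAA where the GC content was 47% or more and 41.0% where it was lower. The 20 summits split into 10 and 10 at that value, which was chosen after the contents were seen, with the sequence in 0 of each (up to 30% allowed). It occurred at 21.3% of the other summits that lay in promoters of 2 or more genes and at 34.9% of those in the promoter of 1 gene. The part of composition or spacing in the count was not tested.

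The sequence was also scarce at genes with related functions. Leaving out summits of the mitochondrial ribosomal protein genes, TGATAA was at 1 of 63 summits of cytosolic ribosomal protein genes (1.59%), at 0 of 26 of respiratory chain and ATP synthase genes (up to 11.5% allowed) and at 1 of 8 of the mitochondrial import list. In a fixed window near the TSS, narrower than the promoter, the shares were closer to those of all genes. From 300 bp upstream to 50 bp downstream of the first TSS it occurred in 6 of the 21 genes with a summit (28.6%), in 17 of the 49 without (34.7%) and in 34.05% of all genes.

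Of the other motifs searched on both strands, each was at few of the 20 summits. AGGTCA, a core site of nuclear receptors, was at 1 (mrpl-15) and at 4.18% of all promoter summits. AGTTCA, another such site, was at 2 (mrpl-9 and mrps-35) and at 5.79%. CCGCCC was at 1 (mrpl-47; 4.56% of all) and TTTCAG at 1 (mrpl-16; 7.30%). AAGTCCA (0.474% of all), CACGTG (4.63%), GAGAGAGA (4.89%), TGACGTCA (0.753%) and TATAAA (8.05%) were at 0. These shares are too low for 20 summits to tell apart.

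Some strings of 7 bases recurred at the summits. They were picked after their counts were seen, as those at 5 or more of the 20 summits and under 5% of all promoter summits, and are given with no test. CGCAAAC was at 6 summits (mrpl-12, mrpl-28, mrpl-45, mrpl-49, mrpl-55 and mrps-16) and at 2.52% of all promoter summits. GCGCTCC was at 5 (mrpl-45, mrpl-47, mrpl-49, mrpl-55 and the one shared by mrpl-1 and mrps-24) and at 2.99%. In mrpl-55 the pair abut, and mrpl-45 holds CGCAAAC in 2 copies. The only other such string, AATTAAA, was at 5 summits and at 2.99%. Among other summits in promoters of 2 or more genes, CGCAAAC was at 4.54% and GCGCTCC at 7.22%, and among those in the promoter of 1 gene each was at 1.91%. At cytosolic ribosomal protein genes CGCAAAC was at 1 of 63 summits and GCGCTCC at 4 (6.35%). CGCAAAC was at 3.76% of other promoter summits with a GC content of 47% or more and at 1.97% of those below. For GCGCTCC these shares were 6.18% and 1.85%. At the 20 summits the same classes gave CGCAAAC at 4 of 10 and 2 of 10. GCGCTCC was at 2 of 10 and 3 of 10. From 300 bp upstream to 50 bp downstream of the first TSS, CGCAAAC was in 4 of the 21 genes with a summit (19.0%) and GCGCTCC in 6 (28.6%). Of the 49 genes without a summit, CGCAAAC was in 4 (8.16%) and GCGCTCC in 2 (4.08%). Of all protein-coding genes, 3.63% and 2.29% held them there. The strings were picked at the summits of the 21 genes, and 13 of the 21 had theirs within 300 bp upstream of the TSS. The higher shares in the 21 are thus partly set by that choice.

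Shared promoters were common. Of the 21 genes, 14 (66.7%) had a summit that also lay in the promoter of another gene, against 33.4% of all genes with a summit. Among the genes whose promoter held the summit, the mitochondrial ribosomal protein gene had the nearest TSS for 13 of the 21. Thus for the other 8 the summit lay nearer to a gene of another family. The median position was -186 bp relative to the TSS, against -209 bp for all genes with one. Of the 21, 13 (61.9%) were within 300 bp upstream, against 55.0%.

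**Figure D2:**
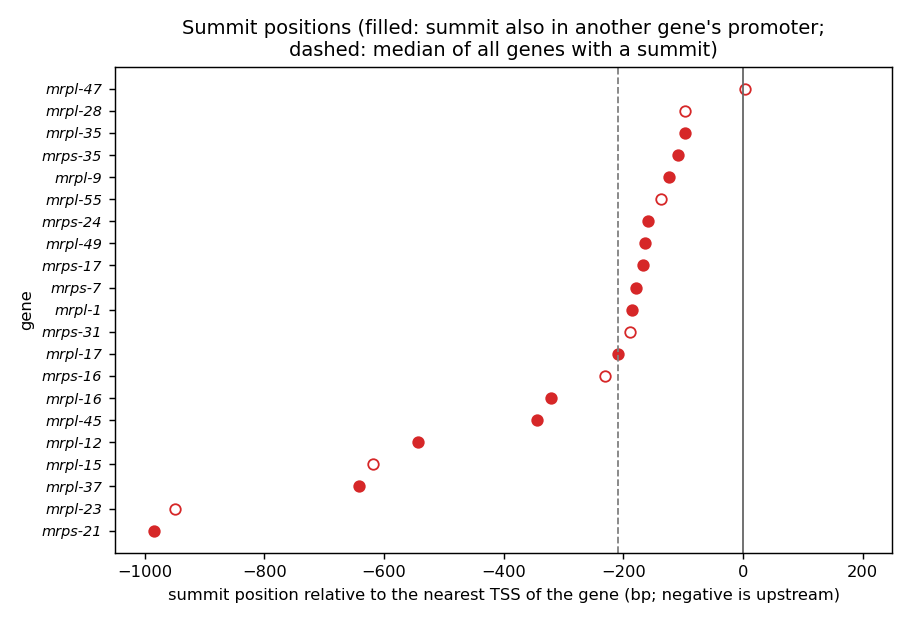
Position of each summit relative to the nearest TSS of the gene, in bp, with upstream to the left. Filled points are the 14 genes whose summit also lay in another gene's promoter, open points the other 7; the dashed line is the median of all genes with a summit, -209 bp. Most points lie near the TSS, with mrps-21 (-984 bp) and mrpl-23 (-950 bp) close to the upstream limit of the window.

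Head-to-head partners had varied functions. The mrps-7 summit lay at -178 bp relative to mrps-7 and at -293 bp relative to Y57G11C.3, a putative 6-phosphogluconolactonase gene in RefSeq. The mrpl-49 summit was shared with rpl-28, which encodes a cytosolic ribosomal protein, and lay at -163 bp from mrpl-49 and -356 bp from rpl-28. Both summits were closer to the mitochondrial gene. The mrpl-17 summit (signal 79.0 pooled, 42.7 in replicate 1, 32.1 in replicate 2) lay at -209 bp from mrpl-17 and -213 bp from vbh-1, an RNA helicase gene. The mrps-17 summit (75.6, 52.0 and 19.6) was shared with txdc-9, a thioredoxin domain gene, and the mrpl-9 summit (48.1, 33.0 and 17.5) with kin-3, the casein kinase II alpha subunit gene. The mrpl-35 summit (39.6, 26.1 and 12.5) was shared with M01F1.4. In these 4 pairs too the mitochondrial gene was nearer, by the widest margin at mrpl-9 (-123 bp against -233 bp).

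At other pairs the partner was nearer. The mrpl-12 summit (80.7 pooled, 41.1 in replicate 1, 37.0 in replicate 2) lay at -543 bp from mrpl-12 but at -190 bp from Y39A1A.22 and -196 bp from Y39A1A.21. MRPL-12 is the counterpart of the bacterial stalk protein that recruits translation factors. The mrpl-45 summit (63.7, 31.5 and 29.5) was nearer to Y119D3B.12, a Luc7-like gene. In mammals the MRPL-45 counterpart mL45 holds the ribosome near the inner membrane. The mrpl-37 summit (53.6, 30.2 and 25.9) was at -642 bp from mrpl-37 and -215 bp from lin-38. The mrpl-16 summit (37.2, 26.5 and 11.6), at a gene whose bacterial counterpart lies by the peptidyl transferase centre, was at -59 bp from clp-2, a calpain gene. For mrps-35 (44.8, 20.4 and 24.96) the summit lay in the 5′ UTR of sws-1. These genes therefore count only when a summit is given to every promoter it lies in.

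The summit that mrpl-1 and mrps-24 shared was the least alike between replicates. Its signal was 49.96 in the pooled list, 35.4 in replicate 1 and 4.88 in replicate 2. The region ranked 5842 of 30000 in replicate 1 and 19220 in replicate 2. MRPL-1 belongs by its bacterial counterpart to the L1 stalk, which handles transfer RNA leaving the ribosome. Another gene, emc-6, which encodes a subunit of an endoplasmic reticulum membrane complex, starts there too (-151 bp). The region over the summit ranked within the first 8745 of both replicate lists for 16 of the 21 genes. The exceptions were mrpl-1, mrps-24, mrpl-16 and mrpl-35 in replicate 2 and mrps-35 in replicate 1.

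Genes with a summit to themselves were mrps-31, mrpl-55 and mrpl-28, described above, and 4 more. At mrpl-23, whose bacterial counterpart lies at the mouth of the peptide exit tunnel, the signal was 108 pooled, 68.9 in replicate 1 and 37.1 in replicate 2. That summit lay in an intron of fars-1, the next gene upstream. The summits of mrpl-15 (80.5 pooled, 55.6 in replicate 1, 29.7 in replicate 2) and mrps-16 (50.4, 26.6 and 19.2) lay between genes. At mrpl-47, which RefSeq names uL29m, the summit (52.0, 30.3 and 28.8) lay in the gene's own 5′ UTR, 3 bp past the TSS. At mrps-21, whose summit was shared, the signal was 86.4 pooled, 56.7 in replicate 1 and 32.1 in replicate 2. The summit was at -984 bp and nearer to F29B9.11, a cytochrome c oxidase subunit gene, and jmjd-1.2. Replicate 1 alone put its own summit outside this window.

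The arrangement of the genes on the chromosome differed from that of genes in general. A gene was called closely following when its upstream neighbour was on the same strand with a gap of at most 500 bp, as in an operon. It was called head to head when the neighbour was on the other strand with a gap of at most 1000 bp. Overlapping neighbours were counted too, as for mrpl-1 and emc-6 (closely following) and mrps-35 and sws-1 (head to head). Both of these mitochondrial ribosomal protein genes had a summit. Of the 70 genes, 29 (41.4%) were closely following and 26 (37.1%) head to head, against 20.0% and 18.6% of all genes. A summit was present at 3 of the 29 closely following genes (18.2% of all such genes), at 12 of the 26 head-to-head genes (36.9% of all) and at 6 of the other 15 (23.2% of all). The members' shares were 10.3%, 46.2% and 40.0%. The counts are small, and no test was made of these differences.

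**Figure D3:**
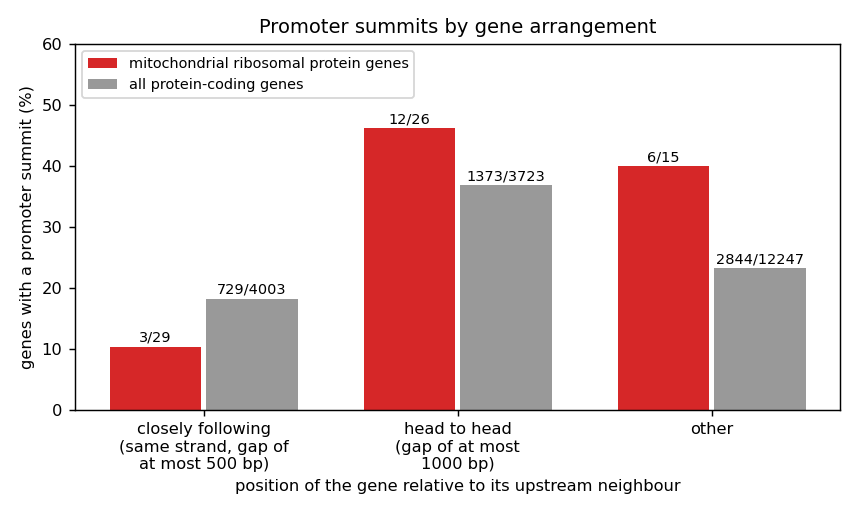
Share of genes with an optimal promoter summit (percent, bars from 0) by the position of the gene relative to its upstream neighbour, for the 70 mitochondrial ribosomal protein genes and all protein-coding genes; the numbers above the bars are genes with a summit over genes in the class. The closely following genes had the lowest share, 3 of 29.

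Many closely following genes stood behind a gene that had a summit. Runs of such genes were traced upstream to their first gene, a step added after the counts were seen. Of the 26 closely following genes without a summit of their own, 17 (65.4%) were in a run whose first gene had one, against 35.0% of all such genes. With these included, 38 of the 70 (54.3%) had a summit at their own promoter or at the first gene of the run, against 30.5% of all genes. Only closely following genes could gain by this step, and they made up 41.4% of the 70 against 20.0% of all genes. The part of arrangement in this gap was not tested. For example, mrpl-32 lies 410 bp behind rpn-3, a proteasome subunit gene whose promoter summit had a signal of 254. Likewise mrpl-54 follows clsp-1 (207), and mrps-26 is in a run that starts with atp-2 (139), the ATP synthase beta subunit gene. These examples were chosen after their values were seen. Whether the runs are transcribed as operons is not in the files.

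Weaker regions were frequent among the remaining genes. In the pooled list, which also keeps background regions, 50 of the 70 genes (71.4%) had a promoter summit, against 45.9% of all genes. Of the 49 genes without an optimal summit, 29 (59.2%) had such a region, against 28.1% of all genes without an optimal summit. The signals of the 29 ran from 5.39 to 32.6 with a median of 15.8, and the other 20 genes had none. The highest were at mrpl-36 (32.6), mrps-10 (32.4), mrps-28 (29.4), mrpl-34 (29.4) and mrpl-18 (27.7), just under the lowest optimal signal of 36.2. No pooled region was found at mrps-5, named here for its known role, which follows sel-1 by 103 bp. An optimal summit lay just upstream of the window at mrps-28 (-1014 bp, signal 56.9), mrpl-40 (-1025 bp, 44.8), mrpl-48 (-1157 bp, 68.8) and mrps-18.C (-1336 bp, 84.3).

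The count stayed near the background under other rules. With a narrow promoter (500 bp upstream to 100 bp downstream) 16 genes (22.9%) had a summit, against 19.7% of all genes. With a wide one (2000 bp upstream to 500 bp downstream) 25 (35.7%) did, against 31.5%. By any overlap of the region it was 24 (34.3%; 26.1% of all). With each summit given only to its nearest TSS, among the genes whose promoter held it, the count was 13 (18.6%), below the 20.9% of all genes. Among the 4372 optimal regions with the highest signal it was 11 (15.7%; 13.7% of all), and among all pooled regions at the maximal −log10 q it was 25 (35.7%; 28.6% of all). The 8745 regions of highest signal gave 19 genes (27.1%) in replicate 1, with 24.5% of all, and 19 in replicate 2, with 24.6%. The 2 lists had 15 of the 21 in common, and mrps-25 and mrps-28 had such a summit in replicate 2 without an optimal one. At mrps-28 the replicate 2 signal was 33.8 (rank 3473) and that of replicate 1 was 8.54 (rank 17192). Among protein-coding genes with a symbol of letters, a hyphen and a number, 28.9% had an optimal summit, which is nearer still to 30.0%.

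Other genes of mitochondrial and cytosolic translation gave mixed counts. Cytosolic ribosomal protein genes had a summit at 67 of 81 (82.7%), with a median signal of 128, led by rpl-3 (588), rpl-15 (424) and rpl-35 (391). The rule by symbol had also taken 3 rpa- genes, which RefSeq names as replication protein A or replication factor A genes or by an RPA_C domain. With them the count was 68 of 84 (81.0%, median 127), and leaving them out was decided after the values were seen. The 81 still hold rpl-24.2, which RefSeq names a putative ribosome biogenesis protein, and which had a summit. They also hold rpl-42, named by a NAM-associated domain, which had none. The list of respiratory chain, assembly factor and ATP synthase genes had one at 26 of 54 (48.1%, median 101.3), led by ucr-2.1 (355), a complex III subunit gene, and cox-5B (234) and cox-5A (218), cytochrome c oxidase subunit genes. Mitochondrial import genes had one at 8 of 18 (44.4%, median 76.9), led by hsp-60 (142) and hsp-6 (126), chaperones of the mitochondrial matrix, and tomm-20 (102), a receptor of the outer membrane. All 3 shares lay above the 30.0% of the mitochondrial ribosomal protein genes, and no test was made of the differences.

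Genes that work with the mitochondrial ribosome were counted in lists that are small and incomplete. Of 28 symbols searched for mitochondrial translation factors and aminoacyl-tRNA synthetases, 17 matched a gene name, and 4 of the 17 (23.5%) had a summit, led by aars-1 (158), ears-2 (91.1) and vars-1 (61.2). Of 14 symbols for genes that maintain mitochondrial DNA and RNA, 9 matched, and 1 of these had a summit, mma-1 (66.1), which encodes a pentatricopeptide repeat protein. Of 3 symbols searched for further mitoribosomal genes, 1 matched, and that gene, dap-3, had no summit. The background for all these lists is the 24.8% of all genes given above. Counts in the incomplete lists are small, and their differences from it were not tested.

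**Figure D4:**
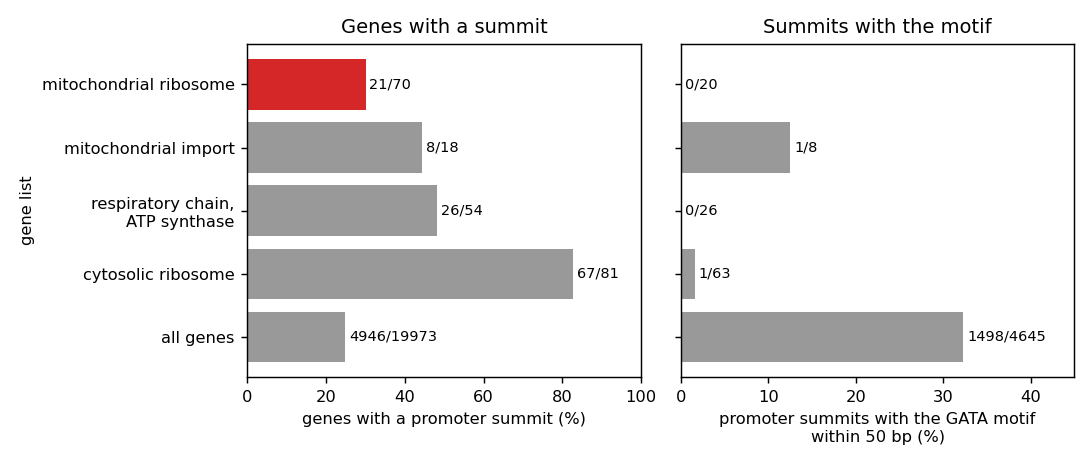
Left, share of genes with an optimal promoter summit (percent) in the mitochondrial ribosomal protein genes, 3 related lists and all protein-coding genes. Right, share of the promoter summits of each list with TGATAA or TTATCA within 50 bp (percent), labelled GATA motif. Other forms of the GATA site were not searched. Bars start at 0, and the labels give counts. The mitochondrial ribosomal protein genes have a summit at 21 of 70 and the motif at 0 of 20 summits, against 1498 of 4645 summits in all.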

How the data were processed

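Peak lists from 2 ChIP-seq replicates of 1 group were used on the ce11 build, which matches the WBcel235 reference. Per the deposited file descriptions, the authors called peaks and background regions against a control alignment, once per replicate and once on both replicates pooled. The authors derived the optimal set from these lists by the irreproducible discovery rate procedure. Neither caller nor thresholds were given in the sources used here. In the deposited lists each region has a signal value (scale unknown), a −log10 q value with a ceiling of 4.32 in the pooled list, and a summit offset. Signal was ranked and set against other genes within a list only. Replicate values stand side by side, and whether the lists share a scale is not known. Lists on ce10 were not used.

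Summits (1-based) were placed in promoters of any TSS of a protein-coding transcript (Ensembl release 115). In 1 optimal region the offset passed the end and was set to the last base. Motifs were searched on both strands. Counting was tested on planted summits and strings. Python 3.11.15, NumPy 2.4.6 and Matplotlib 3.10.9 were used. With 1 group there was no comparison between conditions, so counts and medians stand beside those of all genes, with no test. The genes named are all those with an optimal summit and the genes sharing it, the 5 others with the highest pooled signal, those with an optimal summit within 500 bp of the window, the 3 highest of each related list, nhr-28 and unc-119. Outside this rule, mrps-5, dap-3, mrps-18C, rpl-24.2 and rpl-42 were named for what they encode. The gene mrps-25 and the genes in runs were chosen after their values were seen. The genes and lists were chosen with earlier results of these data known.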

Additional observations from a re-analysis of the deposited data

How the results depend on the processing

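The count of genes with a summit was 21 in the main setting and 16 to 25 in the others, except with each summit given to its nearest TSS (13) and among the 4372 optimal regions of highest signal (11). Under these 2 settings the large subunit count of 14 became 9 and 7, the small subunit count of 7 became 4 and 4, and the count of shared summits, 14, became 0 and 6. The first follows from giving a summit to 1 gene, the second from fewer regions. The median signal relative to all genes with a summit, 0.959, became 0.743 with the narrow window and 0.765 with all pooled regions at the maximal −log10 q, and the cause was not tested. The median distance of -186 bp became -165 bp with the narrow window, -230 bp with the wide one and -167 bp by nearest TSS.

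Leaving out a replicate gave 19 genes in both cases, 11 to 14 large and 5 to 8 small subunit genes, 11 to 12 shared summits, a relative signal of 0.836 to 1.03 and a median distance of -210 to -192 bp. TGATAA was then at 0 to 2 summits. In the optimal set, from both replicates, it was at 4 within 100 bp. Of closely following genes, 3 had a summit with a limit of 300 bp and 4 with 1000 bp. Without the 3 rpa- genes, 67 cytosolic ribosomal protein genes had a summit in place of 68, an alternative chosen after seeing the data. No paired analysis was possible because there is only 1 group. Read depth is unknown, so a promoter without a region is not shown to lack binding.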
